A study of Homo sapiens with 16 samples.

Results

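The histone deacetylase genes are described here across all 8 groups of the study. The members are the 10 rows of the deposited expression table named HDAC1, HDAC2, HDAC3, HDAC4, HDAC5, HDAC6, HDAC7, HDAC8, HDAC10 and HDAC11, of 20612 genes in all, and they were picked by name. RNA was sequenced from HCT116, a human colorectal cancer cell line, with both p53 alleles intact (p53+/+), and from its p53-/- derivative. All cells grew in the same medium. Each genotype received 1 of 4 treatments for 8 hours. These were DMSO, the vehicle; 5 µM Nutlin-3A, which blocks the contact of p53 with its ubiquitin ligase MDM2; 2.5 µM Entinostat; or both drugs, the combination, whose doses the labels do not give separately. Each of the 8 groups had 2 replicates, so there were 16 libraries. The labels do not say whether replicates were separate cultures, so p-values measure only the spread between these libraries and that spread may be technical. The labels name 1 line per genotype, so the loss of p53 and other differences between the lines cannot be told apart.

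Histone deacetylases take acetyl groups off lysines in histones and other proteins. The class I enzymes HDAC1 and HDAC2 are the catalytic subunits of the SIN3, NuRD and CoREST corepressor complexes, HDAC3 works in the NCOR and SMRT complex, and HDAC8 acts outside these complexes. The class IIa proteins HDAC4, HDAC5 and HDAC7 have little deacetylase activity of their own, shuttle between nucleus and cytoplasm, and bind MEF2 transcription factors. HDAC6 and HDAC10 form class IIb, the former a cytoplasmic tubulin deacetylase and the latter a polyamine deacetylase, and HDAC11 alone forms class IV. Entinostat is a benzamide that inhibits class I enzymes. That class is encoded by 4 of the members, and the other 6 belong to other classes. Whether the drug inhibited each of the 4 enzymes at the dose used was not measured here.

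The upstream sequences of 4 members whose transcripts differed between groups are shown first, as the 250 bases before the transcription start that RefSeq gives on GRCh38.p14. HDAC2 was lower in p53-/- than in p53+/+ cells and, within p53+/+ cells only, lower under Nutlin-3A. HDAC3, HDAC7 and HDAC10 differed with Entinostat. Capitals mark GC boxes, whose letters are GGGCGG, boxes of the letters CCAAT, and matches to the p53 half-site consensus, all searched on both strands. None of the matches shown overlap. The sequences read 5′ to 3′ on the gene's strand.
HDAC2: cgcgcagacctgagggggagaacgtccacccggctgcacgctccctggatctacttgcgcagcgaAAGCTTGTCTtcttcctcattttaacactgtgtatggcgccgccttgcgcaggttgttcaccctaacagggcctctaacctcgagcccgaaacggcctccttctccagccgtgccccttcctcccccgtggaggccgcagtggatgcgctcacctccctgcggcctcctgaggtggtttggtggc
HDAC3: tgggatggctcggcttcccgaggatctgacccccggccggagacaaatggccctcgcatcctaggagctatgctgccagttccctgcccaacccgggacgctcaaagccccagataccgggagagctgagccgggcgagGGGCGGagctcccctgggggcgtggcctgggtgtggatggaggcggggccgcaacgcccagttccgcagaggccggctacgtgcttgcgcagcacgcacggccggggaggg
HDAC7: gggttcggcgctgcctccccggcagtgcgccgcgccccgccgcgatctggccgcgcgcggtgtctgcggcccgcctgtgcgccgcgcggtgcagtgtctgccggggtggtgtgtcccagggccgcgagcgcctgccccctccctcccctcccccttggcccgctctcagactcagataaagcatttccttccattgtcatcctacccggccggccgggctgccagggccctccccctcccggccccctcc
HDAC10: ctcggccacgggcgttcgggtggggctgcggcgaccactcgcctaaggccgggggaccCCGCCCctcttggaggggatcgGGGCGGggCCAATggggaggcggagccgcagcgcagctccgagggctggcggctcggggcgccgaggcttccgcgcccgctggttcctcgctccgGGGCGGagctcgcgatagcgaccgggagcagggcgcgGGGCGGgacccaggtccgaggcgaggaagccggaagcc

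The HDAC2 window (chr6:113971149-113971398, minus strand, 63.2% G and C) held 1 match to the p53 half-site and no GC box. That half-site was found in 5.57% of all 35114 RefSeq windows of this length. A window of HDAC4 that is not shown (chr2:239273628-239273877, minus strand) held 1 such match too. The HDAC3 window (chr5:141636850-141637099, minus strand, 70.8% G and C) held 1 GC box. The HDAC10 window (chr22:50251266-50251515, minus strand, 78% G and C) held 4 GC boxes and 1 CCAAT box, motifs found in 42.64% and 32.01% of all windows. None of the 6 motifs searched was in the HDAC7 window (chr12:47819904-47820153, minus strand, 75.6% G and C). The other 3 motifs were the E-box (CACGTG, 6.345% of windows), the CHR element (TTTGAA, 13.32%) and the MEF2 site (2.802%). The median window held 58% G and C. These matches describe letters only and do not show that a factor bound there. RefSeq windows were matched for 9 of 10 members, HDAC5 being the exception.

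HDAC1 had the highest transcript level of the family. Levels are given as RPKM, read numbers scaled for gene length and sequencing depth, which allows genes to be compared within a library. HDAC1 ranged from 121 to 163 RPKM over the 16 libraries with a mean of 137, HDAC3 averaged 44.5 and HDAC2 averaged 20.5. These 3 class I genes took the top ranks in the same order in each of the 8 groups. The fourth class I gene, HDAC8, was far lower, with a mean of 3.58 RPKM and a range from 3.14 to 3.997. The class I genes together held between 84.5% and 88.0% of the summed RPKM of the 10 members, by group mean.

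Below the 3 leading genes came HDAC6 with a mean of 8.58 RPKM over the 16 libraries, HDAC5 with 7.19 and HDAC7 with 5.61. HDAC10 averaged 4.53, HDAC11 averaged 3.93, and HDAC4 was lowest in each of the 8 groups with a mean of 1.63. In p53+/+ DMSO libraries HDAC11, at 3.84 and 3.67 RPKM, lay above HDAC8, at 3.14 and 3.50. In p53-/- DMSO libraries neighbouring genes overlapped: HDAC6 with HDAC7, HDAC5 with HDAC10, and HDAC8 with HDAC11. All 10 members passed the filter on low values, a mean of at least 0.5 RPKM, as did 60.5% of all genes.

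**Figure D1:**
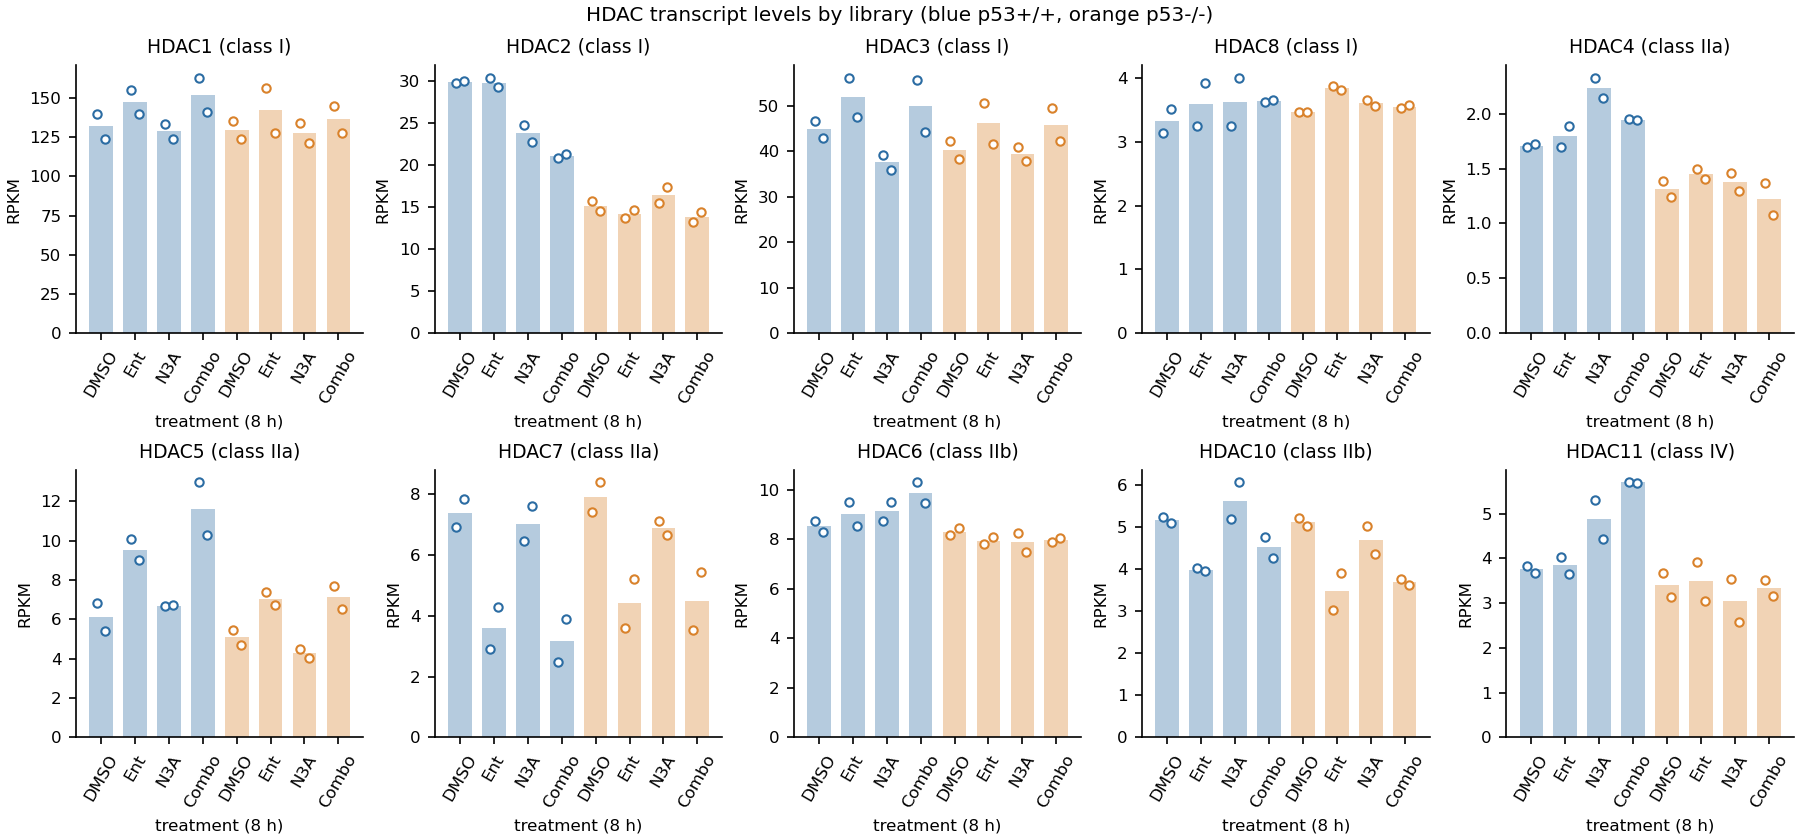
RPKM of each HDAC gene on linear axes that start at 0, by group. Open circles are the 16 libraries, bars are means of 2 replicates, blue is p53+/+ and orange p53-/-. HDAC7 lay between 2.49 and 5.43 RPKM in the 8 libraries with Entinostat and between 6.45 and 8.39 in the 8 without, and HDAC2 was lower in p53-/- than in p53+/+ cells under every treatment.

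The drugs and the cell type were checked before changes were read. In p53+/+ cells Nutlin-3A raised the p53 targets CDKN1A 11.7-fold and MDM2 14.8-fold, and Entinostat raised the linker histone gene H1F0, known to respond to HDAC inhibitors, 2.15-fold against DMSO. H1F0 was also called in both p53-/- Entinostat comparisons (1.86-fold against DMSO and 1.80-fold on top of Nutlin-3A), but in p53+/+ cells on top of Nutlin-3A it was 1.25-fold higher and not called (log2 change 0.31 ± 0.14, adjusted p = 0.11). Of 7 epithelial markers 6 were expressed, among them EPCAM at 126 to 191 RPKM, and VIL1 was at most 0.0435. Of the 7 markers of blood, endothelial and mesenchymal cells, PTPRC, CD3E, PECAM1, COL1A2 and COL3A1 stayed under 0.05 RPKM, VWF reached 0.238, and COL1A1 lay between 2.00 and 5.80. The summed RPKM of these 7 was 2.05 to 2.70 in libraries without Entinostat and 3.79 to 6.04 with it. The summed RPKM of the 7 epithelial markers differed as well. In p53+/+ cells it was 2078 to 2279.9 with DMSO, 2794 to 2863 with Entinostat, 2693 to 2786 with Nutlin-3A and 4009.8 to 4641 with the combination. In p53-/- cells it was 1717 to 2205 in libraries without Entinostat and 2312 to 2663 with it. The part of these markers in the results below was not tested.

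The first comparison asked how the transcripts of class I, the class that Entinostat acts on, and of the other classes responded to the drug. Averaged over both genotypes with and without Nutlin-3A, HDAC7 fell, HDAC5 rose and HDAC10 fell, all outside class I. Within class I, HDAC3 and HDAC1 rose by smaller amounts, HDAC2 fell slightly, and HDAC8 was not called. In limma the threshold for a call was 0.05 on the adjusted p. In this average 6 of 10 members were called, 3 higher and 3 lower, beside 61.8% of all tested genes (31.7% higher and 30.1% lower), so the count of the family was near the background. The median log2 change was 0.10 over the 4 class I genes and 0.00 over the other 6, and 0.01 over all 12466 tested genes. Fewer cells of a type and less RNA per cell cannot be told apart in such bulk samples.

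HDAC7, a class IIa corepressor, was at 6.91 and 7.85 RPKM in the p53+/+ DMSO libraries and at 2.92 and 4.27 with Entinostat. It was at 7.43 and 8.39 with DMSO and at 3.61 and 5.22 with Entinostat in p53-/- cells. With Nutlin-3A alone and with the combination the libraries stood at 6.45 and 7.61 against 2.49 and 3.88 in p53+/+, and at 7.13 and 6.67 against 3.55 and 5.43 in p53-/- cells. Every library with Entinostat was below every library without it, a lack of overlap that 6.94% of tested genes showed in this direction. The averaged log2 change was -0.85 ± 0.12 (SE, adjusted p = 6.16e-05), with mean RPKM 1.86-fold lower. The averaged change was -1.05 among the libraries numbered 1 and -0.65 among those numbered 2.

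In p53+/+ cells Entinostat against DMSO lowered HDAC7 by a log2 change of -0.96 ± 0.23 (adjusted p = 0.0114), 2.05-fold. The call was lost without replicate 2 of p53+/+ DMSO or replicate 1 of p53+/+ Entinostat, where the adjusted p reached 0.126. The p53-/- log2 change was -0.79 ± 0.23 (adjusted p = 0.0254), a call lost without either p53-/- DMSO library or without replicate 1 of p53-/- Entinostat, with an adjusted p of up to 0.219, and without the filter on low values (0.061). Entinostat on top of Nutlin-3A gave -1.05 ± 0.23 in p53+/+ cells (adjusted p = 0.00607, and 0.0692 without replicate 1 of the p53+/+ combination). In p53-/- cells it gave -0.59 ± 0.23, which missed the threshold (adjusted p = 0.0851) and passed it once the replicate number was a block (adjusted p = 0.00478). Its adjusted p was 0.0351 without replicate 2 of the p53-/- combination.

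HDAC5, another class IIa member, moved the opposite way. It was at 6.84 and 5.43 RPKM in p53+/+ DMSO libraries and at 10.1 and 8.995 with Entinostat, and at 5.48 and 4.68 against 7.36 and 6.75 in p53-/- cells. With Nutlin-3A alone it was at 6.68 and 6.71 in p53+/+ and at 4.49 and 4.05 in p53-/- cells, and with the combination at 12.96 and 10.3 and at 7.71 and 6.52. Within each genotype all 4 libraries with Entinostat lay above all 4 without it, as did 17.2% of tested genes in p53+/+ and 24.2% in p53-/- cells. Across genotypes the ranges overlapped, since p53+/+ libraries without Entinostat reached 6.84 and p53-/- libraries with it began at 6.52.

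The averaged log2 change of HDAC5 was 0.61 ± 0.07 (adjusted p = 1.58e-05), 1.59-fold, with 0.64 and 0.59 in the 2 replicates. Singly, Entinostat against DMSO gave 0.60 ± 0.14 in p53+/+ (adjusted p = 0.00937) and 0.44 ± 0.14 in p53-/- cells (adjusted p = 0.0352). Entinostat added to Nutlin-3A gave 0.74 ± 0.14 (adjusted p = 0.00271) and 0.67 ± 0.14 (adjusted p = 0.00694). HDAC5 was therefore called in each of these 4 comparisons. The p53+/+ call against DMSO was lost without replicate 2 of DMSO or replicate 1 of Entinostat (adjusted p up to 0.0956), and the p53-/- call without any 1 of its 4 libraries (up to 0.213), without the filter on low values or with quantile normalization (up to 0.0787). The p53-/- call on top of Nutlin-3A was lost without replicate 1 of the combination (adjusted p = 0.0923).

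HDAC10, the class IIb polyamine deacetylase, was at 5.23 and 5.09 RPKM in p53+/+ DMSO libraries and at 4.02 and 3.96 with Entinostat. The p53-/- libraries stood at 5.21 and 5.02 with DMSO and at 3.03 and 3.92 with Entinostat. Within each genotype all 4 libraries with Entinostat lay below all 4 without it, beside 15.7% of tested genes in p53+/+ and 20.6% in p53-/- cells. The averaged log2 change was -0.36 ± 0.06 (adjusted p = 0.000304), -0.38 and -0.34 in the 2 replicates. Against DMSO the call was made in p53-/- cells (-0.51 ± 0.12, adjusted p = 0.0104). It was lost there without replicate 1 of DMSO or replicate 1 of Entinostat, with an adjusted p of up to 0.127. In p53+/+ cells the change was -0.33 ± 0.12 (adjusted p = 0.0604, and 0.0309 with the replicate block), and it passed the threshold without either p53-/- Entinostat library (adjusted p down to 0.0414) and with quantile normalization (0.034).

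HDAC10 is uncertain for another reason. In GENCODE v29 it shares 2763 of its 4951 exon bases (55.8%) with MAPK12 on the same strand, a kinase gene measured at 16.2 to 26.1 RPKM here. MAPK12 also fell with Entinostat, with a log2 change of -0.28 ± 0.06 on average (adjusted p = 0.00192) and of -0.53 ± 0.12 in p53-/- cells (adjusted p = 0.00897). In p53+/+ cells its log2 change was -0.21 ± 0.12 (adjusted p = 0.224). The sources used here do not give how reads in shared exons were assigned, so the 2 genes cannot be told apart in these exons. HDAC7 shares 32 exon bases with SLC48A1 and 963 (9.7% of its exon bases) with the antisense gene AC004466.1, both on the opposite strand. HDAC3 shares 9.2% of its exon bases and HDAC11 6.25% with antisense genes, that of HDAC11 measured at no more than 0.164 RPKM. HDAC8 shares 1193 exon bases (5.19%) with the protein-coding gene AL133500.1 on the same strand, where the reads of the 2 genes likewise cannot be told apart. HDAC1 has the annotated pseudogenes HDAC1P1 and HDAC1P2, and reads that match both could not be told apart. The strand setting of the read counting is likewise unknown here.

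Among the class I genes HDAC3, the NCOR and SMRT deacetylase, had the largest rise. It was at 46.8 and 43.0 RPKM with DMSO and at 56.2 and 47.7 with Entinostat in p53+/+ cells, and at 42.4 and 38.3 against 50.7 and 41.7 in p53-/- cells. With Nutlin-3A it was at 39.3 and 36.0 and with the combination at 55.8 and 44.3 in p53+/+ cells. The groups with and without Entinostat overlapped over all libraries. Replicate 1 was above replicate 2 in 8 of 8 groups, for HDAC1 and HDAC11 as well. The averaged log2 change of HDAC3 was 0.25 ± 0.07 (adjusted p = 0.00676), 1.20-fold, with 0.32 and 0.18 in the 2 replicates.

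Taken singly, HDAC3 was called when Entinostat was added to Nutlin-3A in p53+/+ cells (0.40 ± 0.14, adjusted p = 0.0397). That call was lost without either p53+/+ DMSO library, without either p53+/+ Nutlin-3A library and without replicate 1 of the combination, with an adjusted p of up to 0.31, and without the filter on low values (0.0655). With the replicate block it was also called in the other 3 Entinostat comparisons, with adjusted p of 0.0321 and 0.0447 against DMSO in p53+/+ and p53-/- cells and 0.0275 on top of Nutlin-3A in p53-/- cells.

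HDAC1, at 140 and 124 RPKM with DMSO and 155 and 140 with Entinostat in p53+/+ cells, had an averaged log2 change of 0.15 ± 0.06 (adjusted p = 0.0444). The p53-/- libraries were at 135 and 124 with DMSO and at 157 and 128 with Entinostat. Libraries with and without the drug overlapped. The averaged call was lost without any 1 of 8 of the 16 libraries, which were replicate 2 of each group without Entinostat and replicate 1 of each group with it (adjusted p up to 0.114), and without the filter on low values or with median of ratios scaling (up to 0.0661). For HDAC1 replicate 1 was above replicate 2 in 8 of 8 groups, and leaving out 1 library unbalances the replicate numbers. The part of this in the lost calls was not tested. With the replicate block HDAC1 was called also in p53+/+ cells, against DMSO (adjusted p = 0.0417) and on top of Nutlin-3A (adjusted p = 0.00557). Against DMSO the log2 change of HDAC2 was -0.003 in p53+/+ and -0.09 in p53-/- cells. On top of Nutlin-3A it was -0.17 and -0.24, and none of these was called without the block. Averaged over these comparisons HDAC2 was called, with -0.13 ± 0.04 (adjusted p = 0.0223). That call was lost without replicate 1 of p53+/+ Nutlin-3A, of p53-/- DMSO, of p53-/- Entinostat or of the p53-/- combination, or without replicate 2 of p53-/- Nutlin-3A (adjusted p up to 0.0579), and with quantile normalization (0.42).

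HDAC8, the class I enzyme outside the corepressor complexes, had an averaged log2 change of 0.05 with a 95% confidence interval from -0.07 to 0.18. The intervals were -0.16 to 0.10 for HDAC4, -0.06 to 0.13 for HDAC6 and -0.06 to 0.26 for HDAC11. These 4 genes were not called. The intervals give the sizes of change that the data allow in this fit only, with RPKM as deposited and no replicate block. With quantile normalization HDAC4 was called, at an adjusted p of 0.00111 and a log2 change of -0.29, which lies outside its interval above. Against DMSO alone, 0 of 4 class I genes and 2 of the other 6 were called in p53+/+ cells, beside 27.5% of all tested genes. In p53-/- cells the counts were 0 of 4 and 3 of 6, beside 28.2%. When Entinostat was added to Nutlin-3A, 3 of 10 members were called in p53+/+ cells (34.7% of all genes) and 1 of 10 in p53-/- cells (23.4%).

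The replicate block called 5 of 10 members in p53+/+ cells against DMSO, beside 44.6% of all genes, and 5 of 10 in p53-/- cells on top of Nutlin-3A, beside 41.2%. Members called in the latter only with the block were HDAC2 (adjusted p = 0.0291), HDAC3, HDAC7 and HDAC10 (0.0494). Of class I the block added HDAC1 and HDAC3 in p53+/+ cells against DMSO, and HDAC3 in p53-/- cells against DMSO. The lack of class I calls against DMSO therefore held in neither genotype with the block.

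**Figure D2:**
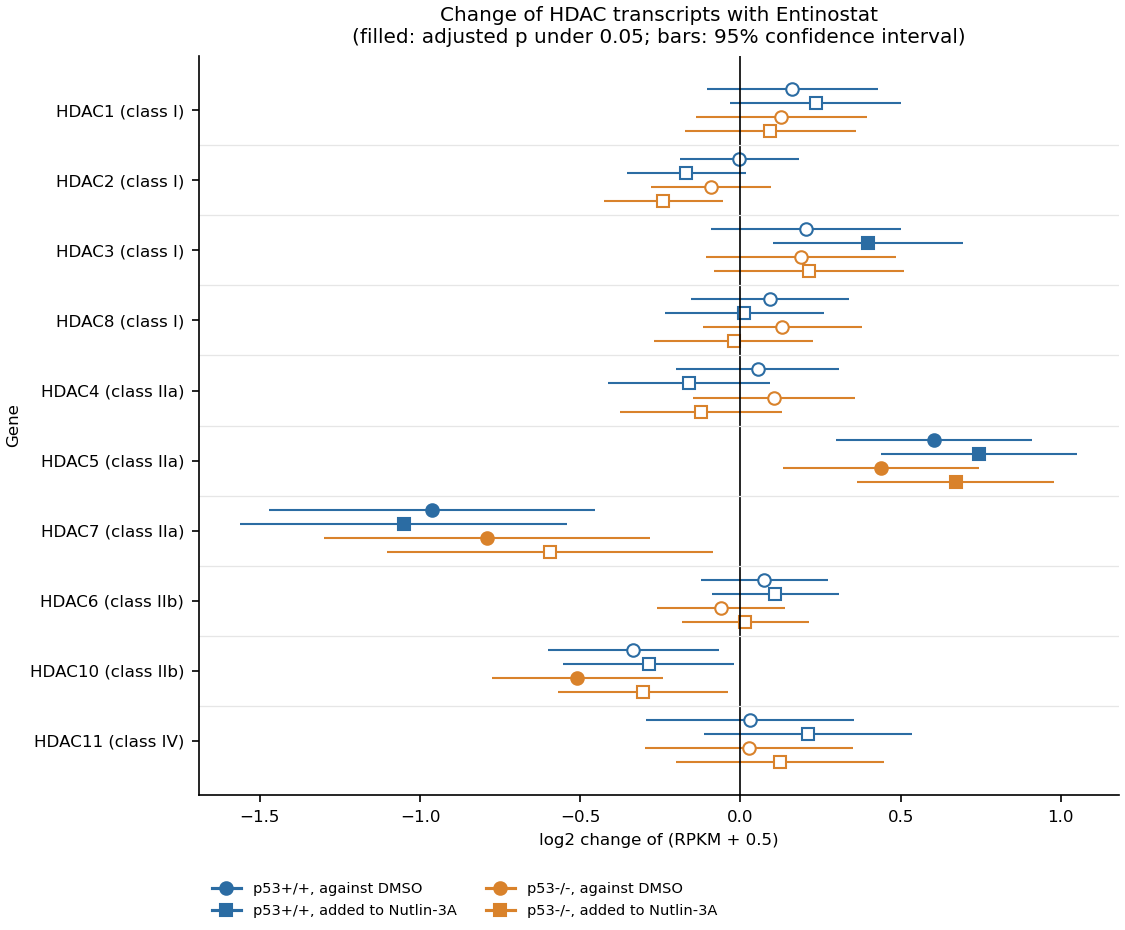
Log2 change of RPKM + 0.5 of each HDAC gene (rows, with class) with Entinostat in 4 comparisons, p53+/+ in blue and p53-/- in orange, circles against DMSO and squares on top of Nutlin-3A, with 95% confidence intervals as bars and filled symbols for adjusted p under 0.05. HDAC5 is filled on the right in all 4 comparisons and HDAC7 on the left in 3.

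The opposite movement of both class IIa genes changed their order within the libraries. The ratio of HDAC7 to HDAC5 in RPKM was 1.01 and 1.45 in p53+/+ DMSO libraries and 0.29 and 0.475 with Entinostat. The p53-/- ratios were 1.36 and 1.79 with DMSO and 0.491 and 0.774 with Entinostat. The combination gave mean ratios of 0.285 in p53+/+ and 0.647 in p53-/- cells, against 1.05 and 1.62 with Nutlin-3A alone. HDAC7 was the more abundant of the pair in 7 of 8 libraries without Entinostat and in 0 of 8 with it. These ratios describe the changes above again and carry no test of their own.

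**Figure D3:**
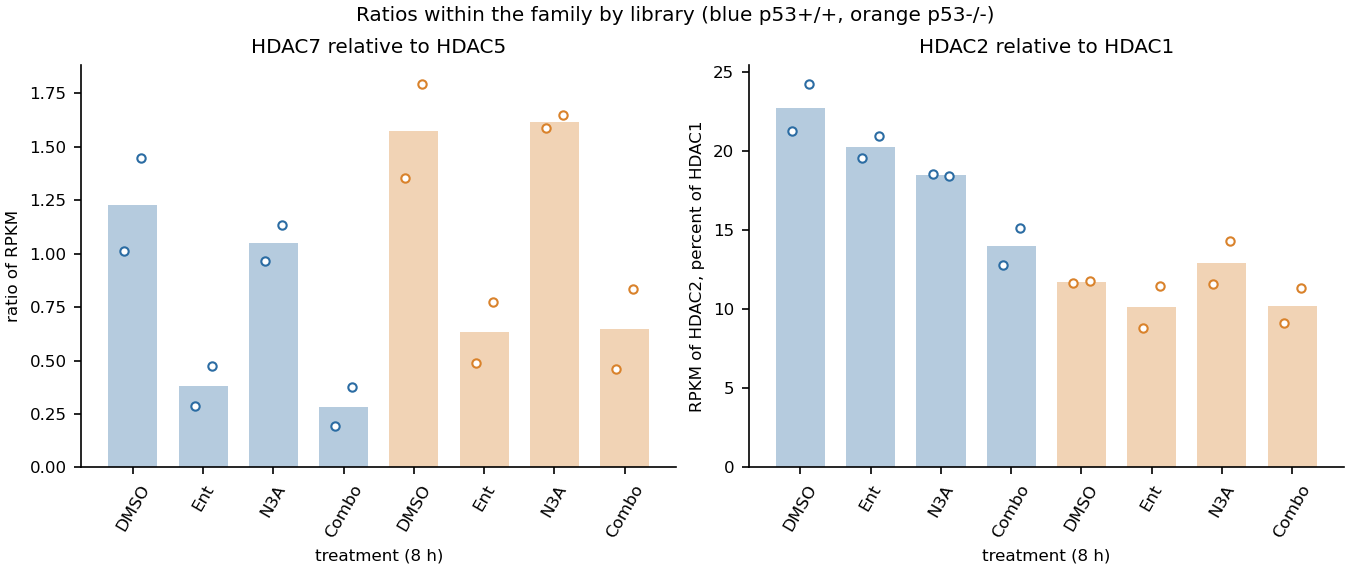
Ratio of HDAC7 to HDAC5 (left) and HDAC2 as a percentage of HDAC1 (right), both in RPKM on axes that start at 0, by group, with libraries as open circles and means of 2 replicates as bars, p53+/+ in blue and p53-/- in orange. The left ratio is under 1 in every library with Entinostat, and the right one has a mean of 22.8% with DMSO and 13.98% with the combination in p53+/+ cells.

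The difference in Entinostat response between genotypes was tested as an interaction, averaged over Nutlin-3A absent and present. None of the 10 members was called (0 of 10, beside 0.0562% of tested genes), and 0 of 10 passed at an unadjusted p under 0.05 or were called with the replicate block. The difference for HDAC7, p53+/+ minus p53-/-, was -0.31 on the log2 scale with a 95% confidence interval from -0.82 to 0.20. For HDAC5 it was 0.12 with an interval from -0.19 to 0.42, and for HDAC10 0.10 from -0.17 to 0.36. The intervals give the sizes of difference that the data allow in this fit, with 2 libraries per group and no replicate block.

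Nutlin-3A was compared with DMSO to see which members responded when MDM2 no longer held p53. In p53+/+ cells HDAC2 fell and was the sole member called, 1 of 10, beside 17.4% of all tested genes. HDAC2 was at 29.8 and 29.9 RPKM with DMSO and at 24.8 and 22.8 with Nutlin-3A, a log2 change of -0.32 ± 0.09 (adjusted p = 0.0214). On top of Entinostat it went from 30.4 and 29.3 to 20.9 and 21.3 RPKM, a change of -0.49 ± 0.09 (adjusted p = 0.00286). All 4 p53+/+ libraries with Nutlin-3A lay below all 4 without it, beside 11.1% of tested genes in that direction.

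The call of HDAC2 against DMSO was lost without either p53+/+ DMSO library or replicate 2 of p53+/+ Nutlin-3A (adjusted p up to 0.139), and with quantile normalization (0.0681). The call on top of Entinostat was kept without any single library (adjusted p up to 0.0283). HDAC2 as a percentage of HDAC1 averaged 22.8% with DMSO, 20.3% with Entinostat, 18.5% with Nutlin-3A and 13.98% with the combination in p53+/+ cells. It lay between 10.1% and 12.95% in p53-/- cells by group mean.

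HDAC11, the class IV member, was at 3.84 and 3.67 RPKM with DMSO and at 5.31 and 4.43 with Nutlin-3A in p53+/+ cells. On top of Entinostat it went from 4.04 and 3.66 to 5.70 and 5.69. All 4 libraries with Nutlin-3A lay above all 4 without it, as also for HDAC4, beside 7.2% of tested genes. HDAC11 was called on top of Entinostat (0.51 ± 0.15, adjusted p = 0.0381), 1 of 2 members called there with HDAC2, beside 14.8% of tested genes. Of all calls there 34.7% were higher, and 46.7% with quantile normalization. That call was lost without any 1 of the 6 p53+/+ libraries treated with DMSO, Entinostat or the combination (adjusted p up to 0.206). It was also lost without the filter on low values (0.0677). Against DMSO its change was 0.33 ± 0.15 (adjusted p = 0.158).

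HDAC4, the least abundant class IIa member, was at 1.69 and 1.72 RPKM with DMSO and at 2.32 and 2.14 with Nutlin-3A in p53+/+ cells. Its log2 change was 0.31 ± 0.12 (adjusted p = 0.0926). With the replicate block 4 members passed for Nutlin-3A against DMSO, beside 31.5% of all genes. They were HDAC2 (adjusted p = 0.00819), HDAC3 with -0.25 (0.0164), HDAC4 with 0.31 (0.0391) and HDAC11 with 0.33 (0.0223). HDAC5 passed on top of Entinostat with the block, with 0.27 (adjusted p = 0.0337 against 0.235 without it).

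In p53-/- cells Nutlin-3A gave 0 of 10 members and 0% of all tested genes in limma, both against DMSO and on top of Entinostat, and these counts were also 0 with the block. HDAC2 was at 15.8 and 14.6 RPKM with DMSO and at 15.5 and 17.4 with Nutlin-3A there, a log2 change of 0.11 with a 95% confidence interval from -0.08 to 0.30. HDAC11 was at 3.67 and 3.14 with DMSO and at 3.53 and 2.58 with Nutlin-3A, an interval from -0.47 to 0.18. At an unadjusted p under 0.05, 0 of 10 members passed in either comparison, beside 440 genes (3.53%) against DMSO and 48 genes (0.385%) on top of Entinostat.

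**Figure D4:**
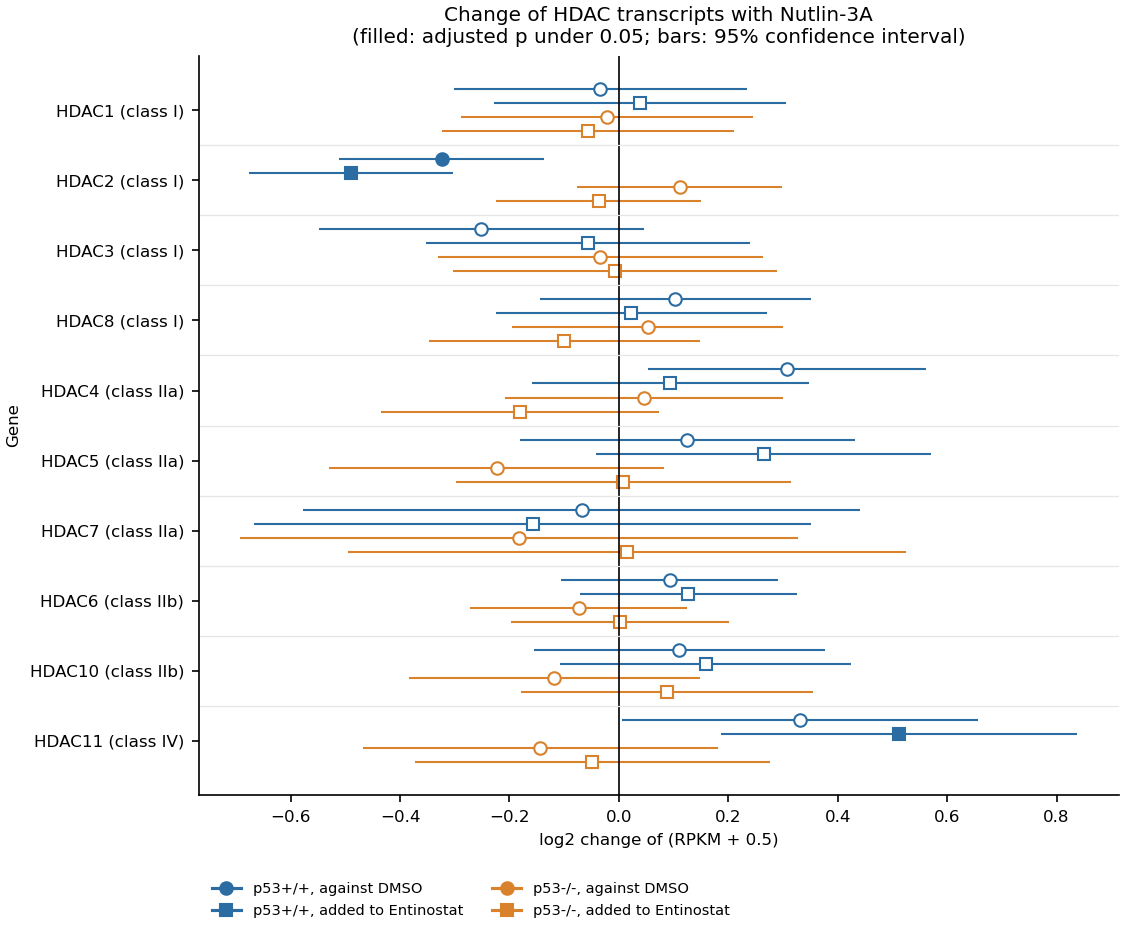
Log2 change of RPKM + 0.5 of each HDAC gene (rows, with class) with Nutlin-3A in 4 comparisons, p53+/+ in blue and p53-/- in orange, circles against DMSO and squares on top of Entinostat, with 95% confidence intervals as bars and filled symbols for adjusted p under 0.05. HDAC2 is filled on the left in both p53+/+ comparisons, HDAC11 on the right in 1, and no p53-/- symbol is filled.

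The genotype difference in the response to Nutlin-3A without Entinostat, p53+/+ minus p53-/-, was -0.44 ± 0.12 for HDAC2, with a 95% confidence interval from -0.70 to -0.17. It missed the threshold (adjusted p = 0.053) and passed it with the replicate block (0.0189), without the filter on low values (0.0455) and without replicate 1 of p53-/- Nutlin-3A (0.0443). For HDAC11 the difference was 0.47 ± 0.21 (adjusted p = 0.241, and 0.0345 with the block). In limma 0 of 10 members were called (2 at an unadjusted p under 0.05), beside 6.78% of tested genes, and with the block 2 of 10 were, beside 17.1%.

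The combination against DMSO called 4 of 10 members in p53+/+ cells, beside 50% of all tested genes, and 3 of 10 in p53-/- cells, beside 31.8%. These comparisons share their DMSO libraries with those of the single drugs. In p53+/+ cells HDAC7 fell by 1.12 ± 0.23 (adjusted p = 0.00215), 2.32-fold, and HDAC5 rose by 0.87 ± 0.14 (adjusted p = 0.000472), 1.90-fold. HDAC2 fell by 0.49 ± 0.09 (adjusted p = 0.000729), and HDAC11 rose by 0.54 ± 0.15 (adjusted p = 0.0101, and 0.0578 without replicate 2 of p53+/+ DMSO). With quantile normalization 7 members were called in p53+/+ cells, the additions being HDAC1, HDAC3 and HDAC6. Of all 12466 tested genes 2683 were called higher and 3130 lower with that normalization. With the replicate block 6 members were called, beside 64% of all tested genes, the additions being HDAC1 (adjusted p = 0.00994) and HDAC6 (0.0494).

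In p53-/- cells HDAC7 had -0.78 ± 0.23 (adjusted p = 0.025), HDAC5 0.45 ± 0.14 (0.0299) and HDAC10 -0.42 ± 0.12 (0.0213) with the combination. The p53-/- DMSO library numbered 2 was among those whose absence ended each of these calls, with adjusted p of up to 0.236, 0.222 and 0.0956. Replicate 1 of the p53-/- combination did the same for each of them. HDAC7 lost its call also without replicate 1 of DMSO, and HDAC10 without replicate 1 of DMSO or replicate 2 of the combination. Without the filter on low values HDAC7 (0.0601) and HDAC5 (up to 0.0796, also with quantile normalization) were not called. With the block HDAC3 was called as well (0.0494).

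Departure from additivity of the 2 drugs on the log2 scale was tested in p53+/+ cells. No member was called (0 of 10, also at an unadjusted p under 0.05), beside 0% of all tested genes in limma, of which 587 passed at an unadjusted p under 0.05. The largest estimate among the members was that of HDAC4, at -0.21 with a 95% confidence interval from -0.57 to 0.14. The interval of HDAC7 ran from -0.81 to 0.63 and that of HDAC5 from -0.29 to 0.57.

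Between the genotypes HDAC2 was the member that differed without drug. It averaged 15.2 RPKM in p53-/- and 29.9 in p53+/+ DMSO libraries, 1.97-fold lower, with a log2 difference of -0.96 ± 0.09 (adjusted p = 4.57e-05). This was 1 of 10 members called, beside 4.69% of all tested genes. The call was kept under every alternative setting and without any single library, with adjusted p of up to 0.00146.

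The gap in HDAC2 between genotypes was 2.10-fold under Entinostat, 1.45-fold under Nutlin-3A and 1.52-fold under the combination. All 8 p53-/- libraries lay between 13.2 and 17.4 RPKM and all 8 p53+/+ libraries between 20.9 and 30.4. HDAC4, from 1.08 to 1.497 RPKM in p53-/- and from 1.69 to 2.32 in p53+/+ libraries, likewise did not overlap. Among all tested genes 3.67% lay lower in p53-/- cells without overlap.

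Averaged over the 4 treatments 6 of 10 members were called and all 6 were lower in p53-/- cells, beside 51.6% of all tested genes in either direction and 25.3% lower. Class I gave HDAC2 alone, with -0.78 ± 0.04 (adjusted p = 6.6e-08). HDAC5 had -0.48 ± 0.07 (adjusted p = 0.000154), HDAC4 -0.39 ± 0.06 (0.000163) and HDAC11 -0.39 ± 0.07 (0.00104). HDAC6 had -0.18 ± 0.05 (0.00679) and HDAC10 -0.17 ± 0.06 (0.0322). The call of HDAC10 was lost without any 1 of 10 of the 16 libraries (adjusted p up to 0.0791) and with quantile normalization (0.0942). With the block HDAC3 was lower too (0.0334), and HDAC7 was higher in p53-/- cells by 0.19 (0.0267).

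The ratio of p53+/+ to p53-/- mean RPKM was compared between the groups with and without Nutlin-3A. Both ratios with Nutlin-3A were the higher for HDAC4, HDAC5, HDAC6, HDAC8, HDAC10 and HDAC11, and the lower for HDAC2 and HDAC3. Some gaps were small, as for HDAC8, with 0.96 and 0.93 without Nutlin-3A and 1.00 and 1.02 with it. The share of all genes with such an order was not computed, so the order cannot be called a trait of the family. HDAC11 averaged 3.76 RPKM in p53+/+ and 3.40 in p53-/- cells with DMSO, and 5.70 and 3.34 with the combination, a ratio of 1.10 against 1.71. HDAC5 had a ratio of 1.21 with DMSO, 1.35 with Entinostat, 1.57 with Nutlin-3A and 1.63 with the combination. HDAC4 had ratios of 1.30 and 1.24 without Nutlin-3A and of 1.63 and 1.59 with it. The ratios are a description. The genotype difference in Nutlin-3A response, tested without Entinostat, was 0.35 ± 0.20 for HDAC5 and was not called (adjusted p = 0.386, and 0.0702 with the block), and of these 6 members HDAC11 alone was called with the block.

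**Figure D5:**
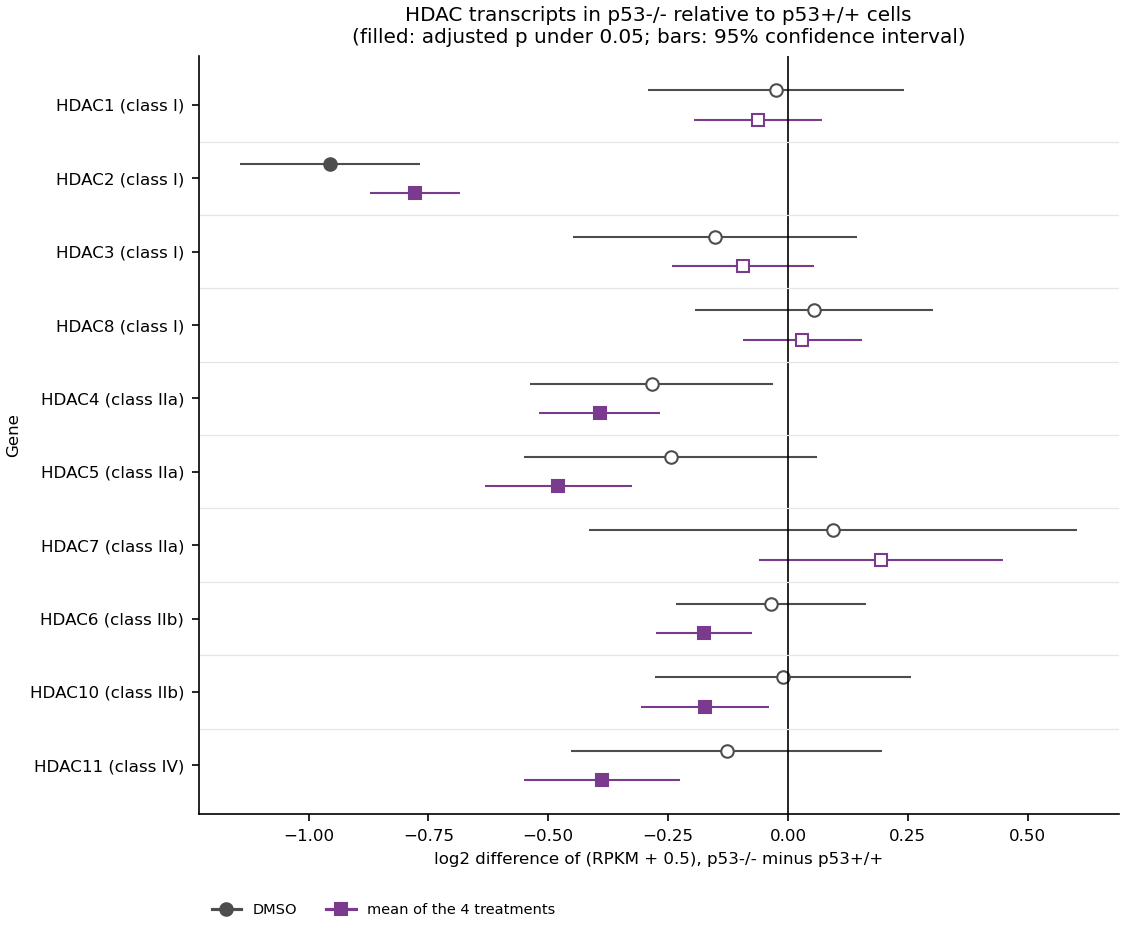
Log2 difference of RPKM + 0.5 of each HDAC gene (rows, with class), p53-/- minus p53+/+, with DMSO (grey circles) and averaged over the 4 treatments (purple squares), with 95% confidence intervals as bars and filled symbols for adjusted p under 0.05. HDAC2 is the only gene filled with DMSO, and 6 genes, all to the left of 0, are filled in the average.

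Other parts of the acetylation machinery are given from lists written with earlier results of these data known. The sirtuins are deacetylases of another family that use NAD. In the averaged Entinostat comparison 1 of 7 was called, beside 61.8% of all tested genes. It was SIRT4, with 0.79 ± 0.10 from a mean of 0.67 to 1.67 RPKM. Its single changes ranged from 0.28 against DMSO in p53-/- cells, which was not called (adjusted p = 0.309), to 1.32 on top of Nutlin-3A in p53+/+ cells. The log2 changes of the other sirtuins were 0.12 for SIRT2, -0.12 for SIRT3, -0.07 for SIRT7, 0.06 for SIRT1, 0.04 for SIRT5 and 0.03 for SIRT6. With Nutlin-3A in p53+/+ cells 1 of 7 was called, beside 17.4% of all tested genes. This was SIRT1, at -0.40 ± 0.10 (adjusted p = 0.019), while the other 6 lay between 0.00 and 0.21.

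Of 12 histone acetyltransferases, the enzymes that oppose HDACs, 3 rose and 6 fell with Entinostat on average, beside 31.7% higher and 30.1% lower of all tested genes. The median of the list was -0.21, beside 0.01 over all tested genes. KAT5 fell from a mean of 21.7 to 13.8 RPKM (-0.64 ± 0.04), and the paralogous coactivators EP300 and CREBBP each fell by 0.52. The nuclear receptor coactivator NCOA3 rose by 0.56 ± 0.06. With Nutlin-3A in p53+/+ cells 2 of 12 fell and 0 rose, a share near the 17.4% of all tested genes called. They were HAT1, which acetylates new histones, with -0.72 ± 0.10 and KAT6A with -0.29 ± 0.09.

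Among 29 corepressor subunits, the partners of class I HDACs, 5 rose and 9 fell with Entinostat on average, 14 of 29 beside 61.8% of all tested genes, with a median of -0.06. The NuRD subunits MTA2 and MBD3 had log2 changes of -0.71 ± 0.07 and -0.63 ± 0.06, the SIN3 subunit BRMS1 had -0.53 ± 0.06, and the NCOR complex subunit CORO2A rose by 0.68 ± 0.12. With Nutlin-3A in p53+/+ cells 2 rose and 10 fell, beside 7.89% higher and 9.5% lower of all tested genes, with a median of -0.23 beside -0.02. SAP30, ING2 and ING1, all SIN3 subunits, had log2 changes of -0.93, -0.80 and -0.76, and MTA2 rose by 0.55.

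Of 16 tested partners and kinases of class IIa HDACs, 3 rose and 1 fell with Entinostat on average, 4 of 16 beside 61.8% of all tested genes. MEF2C, a transcription factor that class IIa HDACs bind, rose from a mean of 0.732 to 2.55 RPKM, by 1.31 ± 0.08 (adjusted p = 3.92e-07). The kinases PRKD3 and SIK2 rose by 0.50 and 0.44, and MARK2 fell by 0.32. With Nutlin-3A in p53+/+ cells 1 rose and 3 fell, 4 of 16 beside 17.4%. YWHAH, an adaptor that binds phosphorylated proteins, had a log2 change of -0.60, PRKD3 of -0.56, MARK2 of -0.25 and PRKD2 of 0.36. In the genotype comparison with DMSO limma called 0 of the 64 tested genes of these 4 lists, beside 4.69% of all tested genes. Of the 64, 9 passed at an unadjusted p under 0.05, and 8 were called with the replicate block, beside 13.1% of all tested genes. The block called 30 of the 64 for Nutlin-3A in p53+/+ cells, where 19 were called without it.

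The genes whose profiles were most like those of the 4 members with the largest called Entinostat changes were ranked by Pearson r of log2(RPKM + 0.5) over the 16 libraries, among 11246 genes. For HDAC7 they were PATZ1 (r = 0.986), CCDC86 (0.986) and SETD1B (0.984). For HDAC5 they were TJP3 (0.985), METTL12 (0.982) and CD164L2 (0.98). For HDAC10 they included MIB2 (0.948) and ZNF581 (0.944), and for HDAC3 they were ACAA2 (0.967), MAP3K3 (0.953) and OAZ1 (0.952). The points share the same 8 groups and libraries, so each r mostly restates the group differences.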

How the data were processed

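The authors deposited 1 table of RPKM, with 20612 genes and 16 libraries. The submitters' processing notes name Bowtie2, Partek and hg19. The sources used here do not give gene models, read filters or strand counting. Per the labels, the kit made stranded mRNA libraries. Libraries held from 45902800 to 55507300 alignments.

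The analysis used log2(RPKM + 0.5), a scale that understates changes of low genes, so folds are ratios of mean RPKM. Genes with a mean of at least 0.5 RPKM were tested, which kept 12466. limma 3.58.1 in R 4.3.3 fitted 8 group means to all 16 libraries with a trended variance prior, and 16 comparisons were made. The fit was also checked on simulated data that held no replicate effect, so that check does not cover such an effect. p-values were adjusted over all tested genes by the Benjamini-Hochberg method, and calls were made at 0.05. Errors are standard errors.

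The members, lists and motifs were chosen with earlier results of these data known. All members are named. Of each other list at most the 4 called genes with the largest change are named, and all sirtuins. MAPK12, SLC48A1, AC004466.1 and AL133500.1 were added for their exon overlap after values were seen. CDKN1A, MDM2 and H1F0 served as checks. Some genes chosen by these rules are not reported here. Exon overlaps came from GENCODE v29.

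The replicate number pairs the samples. Differences between replicates 1 and 2 correlated over genes in 28 of 28 pairs of groups, with r from 0.275 to 0.778, so values with the replicate block are printed where they change a call. The other alternatives were pseudocounts of 0.1 and 1, no filter, a filter at 1, median of ratios scaling, quantile normalization and leaving out each library.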

Additional observations from a re-analysis of the deposited data

How the results depend on the processing

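Over 23 alternative settings, 160 member results gave 3571 values on the same side of the threshold as reported, 75 that were no longer called, 34 newly called and 0 calls that turned direction. The 3571 include results that were not called as reported and stayed so, so this number does not measure how stable the calls were. Without each library in turn, the number of members called ran from 0 to 3 for Entinostat against DMSO in each genotype, from 1 to 3 and from 0 to 2 for Entinostat on top of Nutlin-3A in p53+/+ and p53-/- cells, and from 4 to 6 averaged. It ran from 0 to 1 for Nutlin-3A in p53+/+ cells, from 1 to 2 on top of Entinostat, from 3 to 4 and from 0 to 3 for the combination in p53+/+ and p53-/- cells, from 5 to 6 for the averaged genotype difference and from 0 to 1 for the genotype difference in Nutlin-3A response. A lone library in a group was assumed to vary like the other groups. Leaving out 1 library from a fit without the replicate block also unbalances the replicate numbers between the groups compared. The part of the replicate difference in the calls lost in this way was not tested.

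With the replicate block, the members called were 5 for Entinostat in p53+/+ cells, 5 for Entinostat on top of Nutlin-3A in p53-/- cells, 4 for Nutlin-3A in p53+/+ cells and 2 for the genotype difference in Nutlin-3A response, and the member calls it changed are given above. Without the filter they were 1 for Entinostat and 1 for the combination in p53-/- cells, 1 for Nutlin-3A on top of Entinostat in p53+/+ cells and 1 for the genotype difference in Nutlin-3A response. The share over all genes without the filter is not given here. With median of ratios scaling Entinostat on top of Nutlin-3A in p53-/- cells called 2, beside 1567 of 12466 tested genes higher and 1455 lower. With quantile normalization that comparison called 2, beside 1030 genes higher and 1068 lower. The same normalization called 0 members for Nutlin-3A in p53+/+ cells, beside 929 genes higher and 972 lower. For the p53+/+ combination it called 7, beside 2683 genes higher and 3130 lower. The cause was not tested. With 2 libraries per group, small changes could not be told from replicate spread.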

Other observations

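HDAC9, the class IIa gene that is no member here, lay below the filter on low values with a mean of 0.447 RPKM and was not tested. In p53+/+ cells it was at 0.256 and 0.176 RPKM with DMSO and at 0.663 and 0.469 with Entinostat. With Nutlin-3A it was at 0.119 and 0.135 and with the combination at 0.454 and 0.502. In p53-/- cells the libraries stood at 0.39 and 0.293 with DMSO, 0.81 and 0.591 with Entinostat, 0.34 and 0.307 with Nutlin-3A and 0.896 and 0.747 with the combination. In each genotype the 4 libraries with Entinostat were above the 4 without it, the direction of HDAC5 and not that of HDAC7. Such a lack of overlap was shown by 17.2% of tested genes in p53+/+ and 24.2% in p53-/- cells. HDAC9 was singled out after its values were seen.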
